A study of Mus musculus with 32 samples.

Results

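The opioid receptor family of the mouse comprises 4 genes, and they were taken by name from a table of 51912 genes: Oprm1 (mu receptor), Oprd1 (delta), Oprk1 (kappa) and Oprl1 (nociceptin receptor). Their transcripts were followed through 32 nuclear RNA libraries from mouse gut, 4 in each of 8 groups. All mice were C57BL/6, kept specific pathogen free, at the University of Bern or at the Francis Crick Institute, and all groups had received AAV9-CaMKII-EGFPKASH intravenously 5 weeks before collection. Nuclei came from longitudinal muscle with attached myenteric plexus of colon or small intestine (SI) and were sorted into EGFP-positive (neuronal) and EGFP-negative (non-neuronal) fractions. The 8 groups were thus each facility, each segment and each sort fraction. Ages, sexes and pooling of animals were not given in the sources used here. The CaMKII promoter drove the nuclear EGFP, so a neuron without EGFP would fall in the non-neuronal fraction. The labels do not say that the 4 libraries of a group came from separate animals, and p-values therefore measure the spread between these libraries, which may be technical.

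Opioid receptors are G protein-coupled receptors that couple mainly to inhibitory G proteins of the Gi and Go classes. When activated they lower cyclic AMP, open inwardly rectifying potassium channels and close presynaptic calcium channels, so that the neuron fires and releases less transmitter. In the gut they are known from the slowing of propulsion by opioid drugs, through receptors on neurons of the myenteric plexus, the network between the muscle layers. Their ligands are peptides cut from large precursors: enkephalins from Penk, dynorphins from Pdyn, beta-endorphin from Pomc and nociceptin from Pnoc.

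The 250 bases before an annotated RefSeq start (GRCm38.p6) are shown for the 3 receptors found in the sequence table. Oprm1 is at chr10:6758506-7038198 on the plus strand (ENSMUSG00000000766), Oprd1 at chr4:132110726-132144486 on the minus strand (ENSMUSG00000050511), Oprk1 at chr1:5588466-5606131 on the plus strand (ENSMUSG00000025905) and Oprl1 at chr2:181715016-181720985 on the plus strand (ENSMUSG00000027584), in GENCODE M21 on GRCm38. Each window was free of annotated exons. Oprm1 and Oprl1 had 3 windows each and Oprd1 had 1, and the exon-free window at the lowest coordinate was used. The Oprm1 window, chr10:6788320-6788569, is inside the annotated gene, which has several starts. The Oprd1 window is chr4:132144487-132144736 and the Oprl1 window chr2:181714766-181715015. Capitals mark every match, on either strand, to the motifs searched.
Oprm1: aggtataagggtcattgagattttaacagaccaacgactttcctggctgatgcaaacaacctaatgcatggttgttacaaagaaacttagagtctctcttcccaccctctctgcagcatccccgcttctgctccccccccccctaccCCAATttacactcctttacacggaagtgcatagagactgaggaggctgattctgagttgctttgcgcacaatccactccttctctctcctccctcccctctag
Oprd1: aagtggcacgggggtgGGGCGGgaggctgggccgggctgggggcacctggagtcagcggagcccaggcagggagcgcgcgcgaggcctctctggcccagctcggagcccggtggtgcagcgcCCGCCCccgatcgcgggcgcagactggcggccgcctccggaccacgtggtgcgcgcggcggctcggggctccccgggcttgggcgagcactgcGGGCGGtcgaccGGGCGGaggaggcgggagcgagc
Oprl1: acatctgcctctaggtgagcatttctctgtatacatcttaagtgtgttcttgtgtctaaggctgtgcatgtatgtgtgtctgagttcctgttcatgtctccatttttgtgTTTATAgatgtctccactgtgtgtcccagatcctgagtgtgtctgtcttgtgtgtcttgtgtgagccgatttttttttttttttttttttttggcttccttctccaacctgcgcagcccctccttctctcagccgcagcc
The Oprd1 window was 80.0% G and C with 34 CG steps and 4 matches to the GC box GGGCGG, which 32.7% of 32851 promoter windows of the same length hold. Only 1.2% of those windows had a share of G and C at or above it. The Oprm1 window was 50.0% G and C, with 4 CG steps and 1 CCAAT, found in 33.8% of windows. The Oprl1 window was 44.4% G and C, with 3 CG steps. It held 1 TATAAA on the strand opposite to the gene, printed as TTTATA. On either strand TATAAA was found in 12.4% of windows. The median over all windows was 52.4% with 6 CG steps. None of the 3 windows held TGACG (17.8% of all windows), CAGCTG (13.0%), TAATTA (4.8%), TTCAGCACC (0.3%) or GGACAG (18.7%). No motif match was common to the 3 windows shown, and the other windows of Oprm1 and Oprl1 were not searched. A match is a run of letters, not a measured binding site.

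The libraries held 2394513 to 8350887 counts each, with a median of 4364112. The sort separated neuronal and glial markers in the labelled direction: all 15 genes of the pan-neuronal list were higher in the neuronal fraction and all 7 glial genes lower. The pan-neuronal genes summed to 5084 to 15122 CPM (counts scaled to library size) in neuronal libraries and 69.3 to 4298 in non-neuronal ones. Most of that sum was Snhg11, at a mean of 6146 CPM in neuronal and 574.6 in non-neuronal libraries. Snap25 was next at 1121 and 168. Markers of Cajal's interstitial cells, which pace the muscle, also reached the neuronal fraction of the SI, where they summed to 659 to 2318 CPM against 263 to 469 in colon. In SI their mean sum was higher in neuronal than in non-neuronal nuclei, 1153 against 515.9 CPM in Bern and 1482 against 409.8 in Crick. Of these 4 genes edgeR called 2 higher in each. In colon the sum was lower in neuronal nuclei, 390.8 against 417.2 CPM in Bern and 316.2 against 393.2 in Crick. A total of 6 libraries stood apart and were also left out together: Bern colon non-neuronal 1 and 2 (pan-neuronal sums of 4298 and 3520 CPM against 1593 to 1798), Bern SI non-neuronal 1 (1373 CPM), Crick colon non-neuronal 3 (lymphocyte gene sum of 415.7 CPM), and Crick SI non-neuronal 2 and neuronal 2 (23.6% and 15.99% mitochondrial counts). Crick libraries detected more genes (25789 to 35260) than Bern ones (15708 to 22533).

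Every receptor was detected in every neuronal library of all 4 groups. Levels here are CPM after scaling by trimmed mean of M values (TMM), given for replicates 1 to 4 in order. Oprk1, the dynorphin receptor, had the most counts: 367, 209, 194 and 310 CPM in Bern colon, 354, 456, 372 and 332 in Bern SI, 394, 405, 291 and 281 in Crick colon, and 477, 158, 412 and 288 in Crick SI. The lowest and the highest library both belonged to Crick SI, so that the 4 groups overlapped throughout. Its group means were 270.1 ± 82.8, 378 ± 54.2, 343 ± 65.7 and 334 ± 141 CPM (SD, n = 4 each).

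Oprm1, the receptor for morphine-like drugs and enkephalins, read 122, 107, 199 and 149.8 CPM in Bern colon, 107, 138, 97.7 and 117 in Bern SI, 138, 133, 115 and 135 in Crick colon, and 90.3, 83.2, 107 and 74.8 in Crick SI. Crick colon was the tightest group, and each of its libraries lay above every Crick SI library. The share of all genes with that pattern was not counted, and the Crick difference was not called (edgeR adjusted p = 0.796). Bern colon and Bern SI overlapped. The means were 145 ± 40.6, 115 ± 17.4, 130.2 ± 10.1 and 88.9 ± 13.8 CPM (SD, n = 4 each).

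Oprd1, the other receptor for enkephalins, read 98.9, 152, 40.3 and 78.5 CPM in Bern colon, 88.4, 163, 153 and 181 in Bern SI, 79.5, 61.5, 103 and 63.5 in Crick colon, and 90.3, 94.5, 86.4 and 129 in Crick SI. Bern colon spread most, its highest library being near the Bern SI level and its lowest under every other neuronal library. The means were 92.4 ± 46.5, 146 ± 40.4, 76.8 ± 19.0 and 100.0 ± 19.5 CPM (SD, n = 4 each).

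Oprl1, which binds nociceptin and not the classical opioids, was the lowest of the family in counts. It read 42.4, 32.6, 32.5 and 80.6 CPM in Bern colon, 30.8, 30.4, 45.2 and 8.43 in Bern SI, 31.7, 30.5, 34.5 and 46.9 in Crick colon, and 26.1, 16.5, 33.0 and 27.8 in Crick SI. Bern colon 4 was the highest and Bern SI 4 the lowest of the 16, and the groups overlapped in both facilities. The means were 47.0 ± 22.9, 28.7 ± 15.2, 35.9 ± 7.53 and 25.8 ± 6.90 CPM (SD, n = 4 each).

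**Figure D1:**
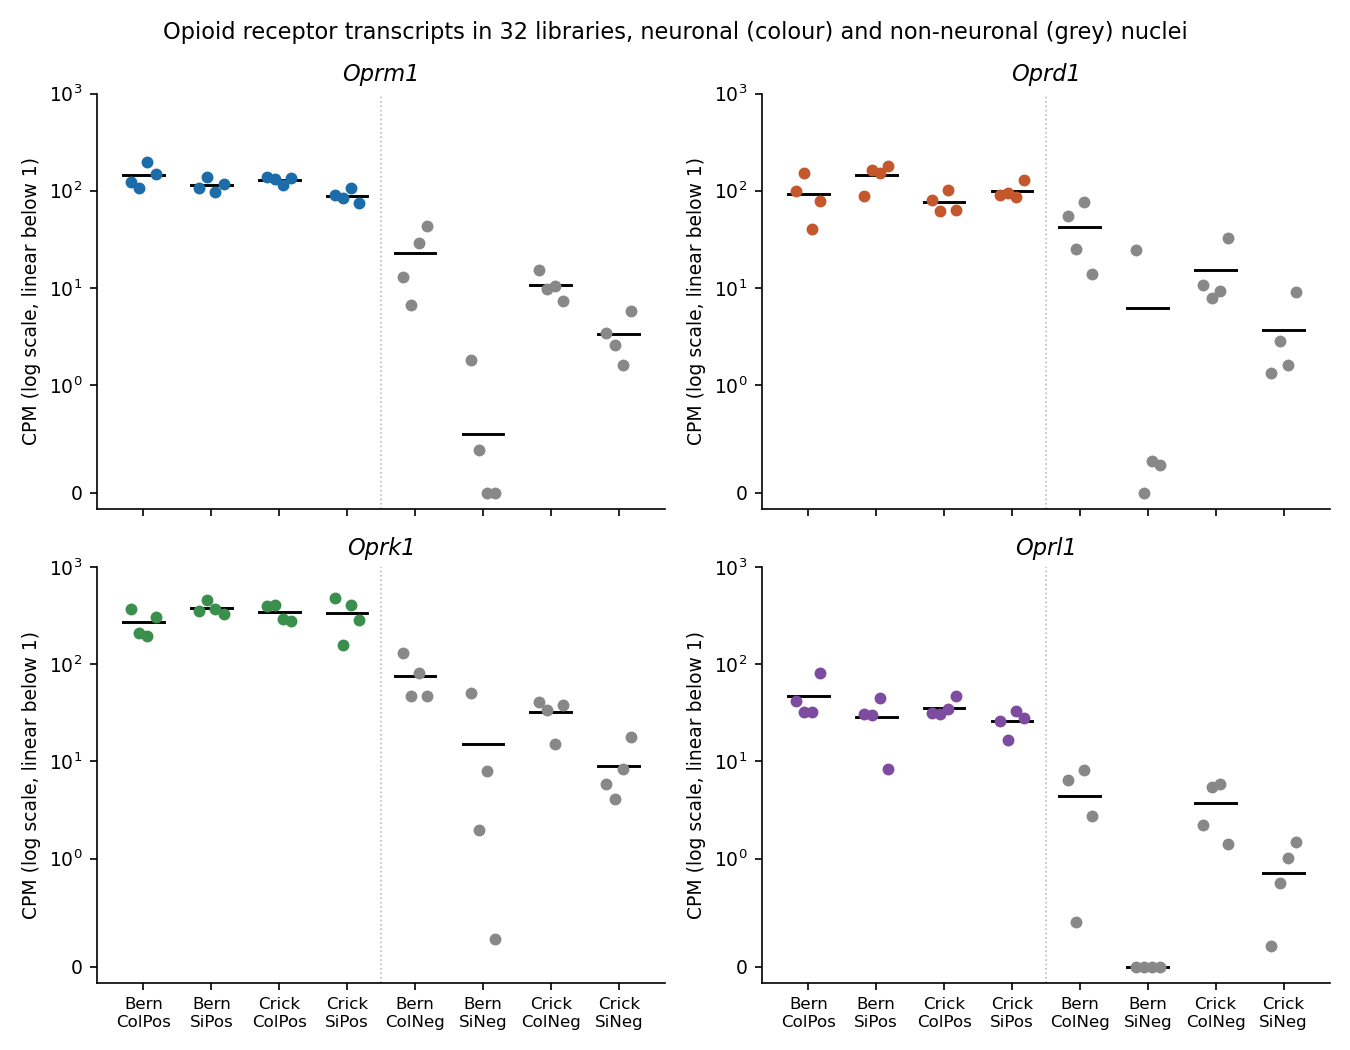
Level of each receptor gene in CPM (log axis, linear below 1) in the 8 groups; points are libraries, horizontal bars are means of 4 libraries, neuronal groups in colour and non-neuronal groups in grey. Oprl1 sits at 0 in all 4 Bern SI non-neuronal libraries, and Oprd1 is the receptor whose neuronal and non-neuronal libraries overlap in Bern colon.

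Levels of different genes were compared per kilobase of annotated exon (8037 bases for Oprm1, 4021 for Oprd1, 9151 for Oprk1 and 3753 for Oprl1). On that scale the neuronal means over 16 libraries were 36.2 CPM per kb for Oprk1, 25.8 for Oprd1, 14.9 for Oprm1 and 9.15 for Oprl1. Oprk1 was above Oprl1 in 16 of 16 libraries, above Oprm1 in 15 and above Oprd1 in 12. Oprd1 was above Oprm1 in 13 and above Oprl1 in 15, and Oprm1 was above Oprl1 in 15. The place of Oprd1 rested on the length used: divided by the longest single transcript, chosen as an alternative after seeing the data, Oprm1 was above Oprd1 in 15 of 16 libraries. Oprk1 stayed above Oprl1 in all 16 and above Oprm1 in 14 with that length. These are orders of levels, described without a test.

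Sorting into neuronal and non-neuronal nuclei gave the clearest difference of the family. In the non-neuronal fraction Oprm1 read 13.0, 6.66, 28.8 and 42.8 CPM in Bern colon, 1.80, 0.396, 0 and 0 in Bern SI, 15.2, 9.76, 10.3 and 7.39 in Crick colon, and 3.43, 2.58, 1.62 and 5.79 in Crick SI. Each neuronal library was above each non-neuronal library of its facility and segment. Over the 4 pairs of groups Oprm1 was 4.68 ± 0.29 higher in neuronal nuclei on the log2 scale (SE; adjusted p = 9.4e-16, edgeR quasi-likelihood test with Benjamini-Hochberg adjustment over 21521 genes).

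The non-neuronal levels of Oprk1 were 131, 47.5, 80.9 and 46.9 CPM in Bern colon, 50.7, 1.98, 7.95 and 0.256 in Bern SI, 41.1, 34.1, 14.97 and 38.1 in Crick colon, and 5.91, 4.12, 8.32 and 17.8 in Crick SI. No library overlapped with its neuronal counterparts. Its difference was 3.76 ± 0.35 (SE, edgeR, adjusted p = 1.64e-11).

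The non-neuronal levels of Oprd1 were 55.2, 24.98, 76.8 and 13.9 CPM in Bern colon, 24.4, 0, 0.295 and 0.256 in Bern SI, 10.8, 7.92, 9.31 and 32.9 in Crick colon, and 1.34, 2.83, 1.62 and 9.02 in Crick SI. In Bern colon the 2 fractions overlapped, since 2 non-neuronal libraries exceeded the lowest neuronal one. Over the 4 pairs of groups its difference was 3.18 ± 0.42 (SE, edgeR, adjusted p = 5.94e-08), and 4.30 without the 6 libraries that stood apart. Omitting Bern SI non-neuronal 1, set apart for its high pan-neuronal sum, favoured a larger value.

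Oprl1 read 6.47, 0.416, 8.21 and 2.73 CPM in Bern colon non-neuronal nuclei, 0 in all 4 Bern SI libraries, 2.20, 5.52, 5.87 and 1.41 in Crick colon, and 0.191, 0.773, 1.02 and 1.48 in Crick SI. In Bern SI neuronal nuclei it was at least 120.6-fold higher than the floor of 3 counts over the non-neuronal group (0.238 CPM). It was at least 97.5-fold higher whichever neuronal library was left out, with the floor kept. Its fitted difference over the 4 pairs, 5.38 ± 0.45 (SE, edgeR, adjusted p = 4.25e-12), contains that group at 0 and so depends on the prior count of the fit.

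All 4 receptors were therefore called higher in neuronal nuclei, in a comparison in which 43.5% of genes tested were called in either direction and 21.9% as higher. The 4 calls held in all 40 alternative settings or omissions of 1 library. Each of Oprm1, Oprk1 and Oprl1 had neuronal libraries wholly above the non-neuronal ones in every facility and segment, a pattern shared by 3.27% of genes tested. Within single strata that share was 8.15% in Bern colon, where Oprd1 overlapped, 12.6% in Bern SI, 17.2% in Crick colon and 13.8% in Crick SI.

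Within single strata the differences were smaller in colon than in SI at both facilities. In Bern colon, where 25.2% of genes were called and 10.3% as higher, edgeR called Oprl1 (3.40 ± 0.73, SE, adjusted p = 0.000795), Oprm1 (2.66 ± 0.52, adjusted p = 0.000224) and Oprk1 (1.82 ± 0.63, adjusted p = 0.032). The Oprk1 call was lost without Bern colon non-neuronal 2, 3 or 4 or neuronal 1 or 4, with adjusted p up to 0.0892. Oprd1 was not called there: its difference of 1.11 ± 0.77 had a 95% interval of -0.45 to 2.68 (edgeR adjusted p = 0.312). In Crick colon (18.6% called, 7.46% higher) the values were 3.60 ± 0.54 for Oprm1, 3.41 ± 0.68 for Oprk1, 3.25 ± 0.72 for Oprl1 and 2.32 ± 0.80 for Oprd1. The Oprd1 call (edgeR adjusted p = 0.0374) was lost when any of Crick colon non-neuronal 1, 2 or 3 or neuronal 1, 2 or 3 was left out, with adjusted p up to 0.105.

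In SI all 4 receptors were called at both facilities. Bern SI (30.1% called, 17.2% higher) gave 7.78 ± 0.71 for Oprm1, where the 4 non-neuronal libraries held 6 counts in all, 4.65 ± 0.72 for Oprk1 and 4.57 ± 0.90 for Oprd1. Without the 6 libraries that stood apart these became 9.82, 6.83 and 9.37. In Bern SI that left out non-neuronal 1, set apart for its high pan-neuronal sum. It had the highest level of each of these receptors in its group, so its omission favoured larger differences. Crick SI (11.6% called, 6.52% higher) gave 5.18 ± 0.74 for Oprk1, 4.83 ± 0.79 for Oprl1, 4.71 ± 0.90 for Oprd1 and 4.69 ± 0.57 for Oprm1.

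**Figure D2:**
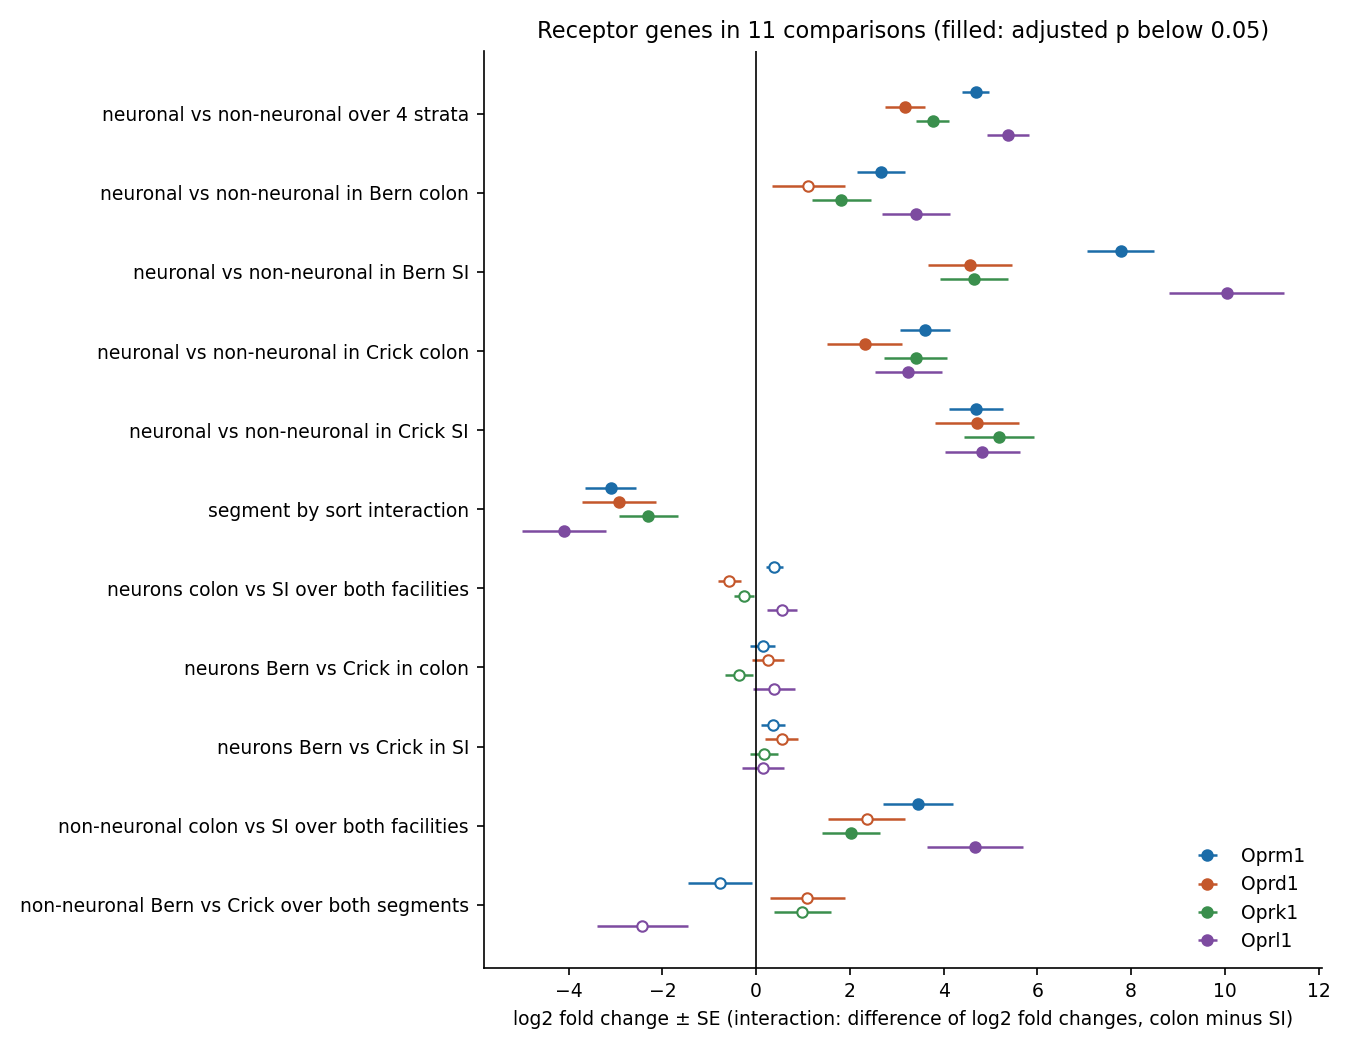
Log2 fold change with its SE for the 4 receptor genes in 11 comparisons from edgeR; filled points have an adjusted p below 0.05, and for the interaction the axis is the difference between the log2 fold changes of the fractions. The sort comparisons are at 1.11 and above, whereas the colon against SI and Bern against Crick comparisons in neuronal nuclei are near 0 and open.

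The segment changed how sharply the receptors divided between fractions. The neuronal excess was smaller in colon than in SI by 3.10 ± 0.54 for Oprm1 (SE, edgeR interaction term, adjusted p = 0.00046), 2.92 ± 0.79 for Oprd1 (adjusted p = 0.0204), 2.30 ± 0.63 for Oprk1 (adjusted p = 0.0216) and 4.11 ± 0.90 for Oprl1 (adjusted p = 0.0044, with the Bern SI group at 0). All 4 interactions were called, against 6.48% of genes in either direction and 5.39% in that direction, and they were called in all 40 alternatives. Of the 15 pan-neuronal genes, 7 were called in the same direction, with a list median of -1.85. How far the amount of neuronal RNA in the non-neuronal fraction accounts for the receptor interactions was not tested.

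The larger part of this lay in the non-neuronal fraction, where colon was above SI. In neuronal nuclei Oprd1 (-0.57) and Oprk1 (-0.27) were lower in colon and Oprm1 (0.39) and Oprl1 (0.55) higher, none of them called. Averaged over facilities, Oprm1 was higher in colon by 3.46 ± 0.75 (SE, edgeR, adjusted p = 0.0056), Oprl1 by 4.68 ± 1.03 (adjusted p = 0.0076) and Oprk1 by 2.03 ± 0.62 (adjusted p = 0.0422), so that 3 of 4 were called, against 9.32% of genes in either direction and 5.79% as higher (62.1% of all calls were higher, 83.2% with scaling by total counts). The Oprk1 call was lost in 10 of 16 omissions, of Bern colon 1 or 3, Bern SI 2 or 3, Crick colon 1, 2 or 4 or Crick SI 1, 2 or 3, with adjusted p up to 0.0882. Oprd1, at 2.36 ± 0.82, missed the threshold (edgeR adjusted p = 0.0738), and without Bern SI non-neuronal 1 it was 4.71 (adjusted p = 0.000336). Among the pan-neuronal genes 6 of 15 were higher in colon non-neuronal nuclei, with a list median of 2.24. Endothelial and epithelial genes were higher there too, 4 of 6 in each list, and their part in the result was not tested.

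Between facilities no receptor was called in non-neuronal nuclei, where 9.29% of genes were. Bern minus Crick was -0.77 ± 0.69 for Oprm1 (95% interval -2.20 to 0.66), 1.09 ± 0.80 for Oprd1 (-0.56 to 2.74), 0.98 ± 0.61 for Oprk1 (-0.27 to 2.24) and -2.43 ± 0.97 for Oprl1 (-4.46 to -0.40, edgeR adjusted p = 0.126). Without Bern SI non-neuronal 1 the sign turned for Oprd1 (-1.27) and Oprk1 (-0.05), neither of them called.

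The non-neuronal signal was set beside the neuronal signal left in that fraction. In Crick SI the non-neuronal mean was 3.78% of the neuronal mean for Oprm1, 3.70% for Oprd1, 2.71% for Oprk1 and 3.35% for Oprl1, close to the 3.20% of the pan-neuronal sum. In Crick colon the pan-neuronal sum stood at 7.42%, with Oprm1 at 8.19%, Oprk1 at 9.36% and Oprl1 at 10.5%, whereas Oprd1 stood at 19.8%. In Bern colon, with the pan-neuronal sum at 20.3%, Oprl1 stood at 9.49%, Oprm1 at 15.8%, Oprk1 at 28.4% and Oprd1 at 46.2%. In Bern SI, with the sum at 4.11%, Oprd1 stood at 4.27%, Oprk1 at 4.02%, Oprm1 at 0.476% and Oprl1 at 0. Oprd1 had the largest percent of the family in 3 of the 4 strata, a description without a test, and in Bern colon it did so whichever library was left out. In Bern SI it fell to 0.125% without non-neuronal 1, under Oprk1 at 0.898%, and Oprk1 was also first without neuronal 1. In Crick colon it fell to 12.1% without non-neuronal 4, under Oprl1 at 12.6%. In these bulk samples fewer cells of a type and less RNA per cell cannot be told apart.

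Single libraries carried much of that signal. In Bern SI non-neuronal nuclei, library 1 had 24.4 CPM of Oprd1 and 50.7 of Oprk1 where the other 3 had at most 0.295 and 7.95, and its pan-neuronal sum of 1373 CPM was the highest of its group. The same library had only 1.80 CPM of Oprm1 and no Oprl1 count. In Crick colon non-neuronal nuclei, library 4 had 32.9 CPM of Oprd1 against 7.92 to 10.8 in the others.

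**Figure D3:**
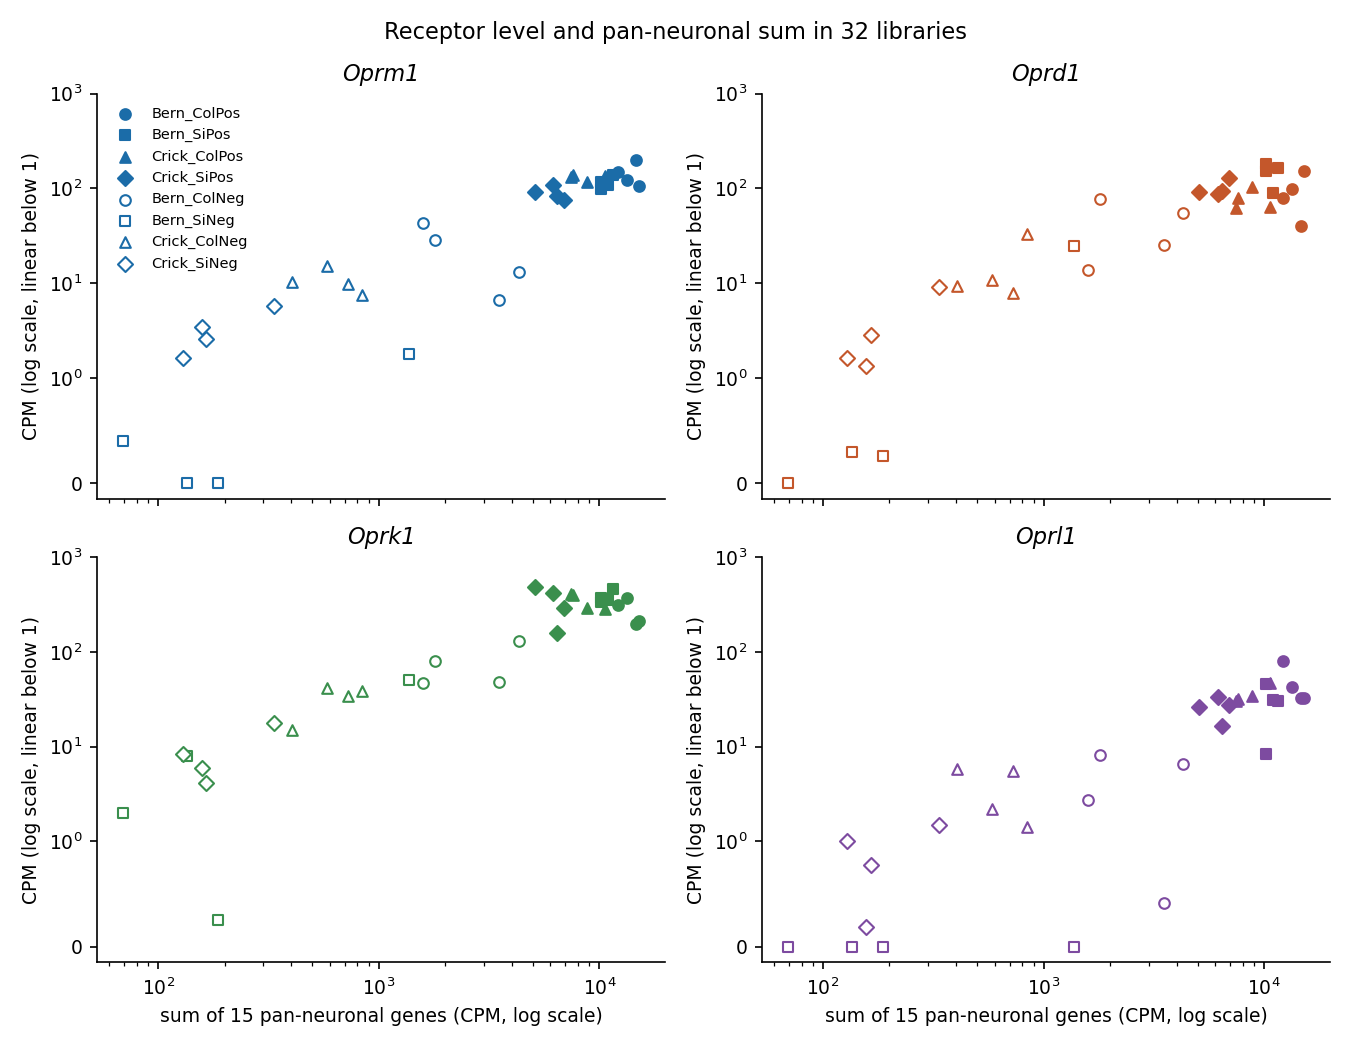
Level of each receptor gene in CPM (vertical, log axis, linear below 1) against the summed level of 15 pan-neuronal genes in CPM (horizontal, log axis), 1 point per library. Shapes mark facility and segment, filled points neuronal and open points non-neuronal nuclei, and colours the receptor. The 16 neuronal libraries lie at the upper right. Among the Bern colon non-neuronal libraries, Oprm1 is at 13.0 and 6.66 CPM in those with the highest sums (4298 and 3520) and at 28.8 and 42.8 CPM in those with the lowest (1798 and 1593).

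Within neuronal nuclei the segments were compared next. None of the 4 receptors was called between colon and SI over both facilities, where 5.51% of 17419 genes were. Colon minus SI was 0.39 ± 0.18 for Oprm1 (95% interval 0.01 to 0.77, edgeR adjusted p = 0.25), 0.55 ± 0.32 for Oprl1 (-0.11 to 1.21, adjusted p = 0.375), -0.27 ± 0.21 for Oprk1 (-0.70 to 0.17, adjusted p = 0.546) and -0.57 ± 0.25 for Oprd1 (-1.08 to -0.07, adjusted p = 0.202). The intervals leave room for differences of up to about 1 log2 unit in Oprd1 and Oprl1. In Bern alone (4.17% called) the values were 0.28 for Oprm1, 0.67 for Oprl1, -0.53 for Oprk1 and -0.72 for Oprd1, and in Crick alone (0.913% called) 0.51, 0.43, 0.00 and -0.43, none of them called. All 4 markers of Cajal's interstitial cells were lower in colon neuronal nuclei, with a list median of -6.57, and their part in the receptor values was not tested.

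Between facilities edgeR called no receptor in neuronal nuclei either, although the ratio of Oprm1 to the pan-neuronal sum, given below, did pass its test. In colon (3.09% of genes called) Bern minus Crick was 0.14 ± 0.26 for Oprm1 (95% interval -0.40 to 0.67), 0.25 ± 0.35 for Oprd1 (-0.47 to 0.97), -0.36 ± 0.30 for Oprk1 (-0.97 to 0.26) and 0.38 ± 0.45 for Oprl1 (-0.55 to 1.31). In SI (0.683% called) it was 0.36 ± 0.26 (-0.17 to 0.90), 0.54 ± 0.35 (-0.18 to 1.26), 0.18 ± 0.30 (-0.44 to 0.80) and 0.14 ± 0.45 (-0.79 to 1.08) in the same order. No receptor was called for a segment difference that depended on the facility, where 0.00574% of genes, a single gene, were. Facility here stands for the animals, their housing and the place together, which cannot be told apart.

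Since the receptors share a library, their make-up could be compared without any scaling between libraries. Each receptor's percent of the summed receptor counts per kb was, over 16 neuronal libraries, 41.6 ± 7.99% for Oprk1, 29.8 ± 9.97% for Oprd1, 17.8 ± 6.27% for Oprm1 and 10.7 ± 4.50% for Oprl1 (SD). In colon against SI the share of Oprm1 was 21.3% against 14.4%, a difference of 6.85 percentage points (exact permutation test within facilities, two-sided, 4900 arrangements, p = 0.00204, adjusted over 8 tests 0.0147). By group Oprm1 took 16.1 to 38.3% in Bern colon, 11.8 to 16.2% in Bern SI, 17.8 to 22.2% in Crick colon and 11.6 to 18.7% in Crick SI. Colon and SI libraries thus overlapped slightly in both facilities. The adjusted p rose to 0.0555 without Bern SI neuronal 3 and to 0.0735 without Bern SI neuronal 4.

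The share of Oprl1 was 13.3% in colon and 8.19% in SI, a difference of 5.09 percentage points (exact permutation p = 0.00367, adjusted 0.0147). Bern colon 4 had the highest share at 23.0% and Bern SI 4 the lowest at 2.29%. The call was lost without Bern colon 4 (3.73, adjusted p = 0.0751), Bern SI 4 (4.18, 0.0735) or Crick SI 1 (4.90, 0.0522), and with shares of plain counts (2.75, 0.0522). Oprd1 went from 25.3% in colon to 34.4% in SI without passing the test (exact permutation p = 0.0686, adjusted 0.183; without Bern colon 2 the adjusted p was 0.0305 and the difference -12.3). Oprk1 held 40.2% and 43.0% (exact permutation p = 0.476, adjusted 0.634). Since shares sum to 100, the 4 values are not independent of each other. Between Bern and Crick no share passed, with adjusted exact permutation p from 0.243 to 0.778.

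**Figure D4:**
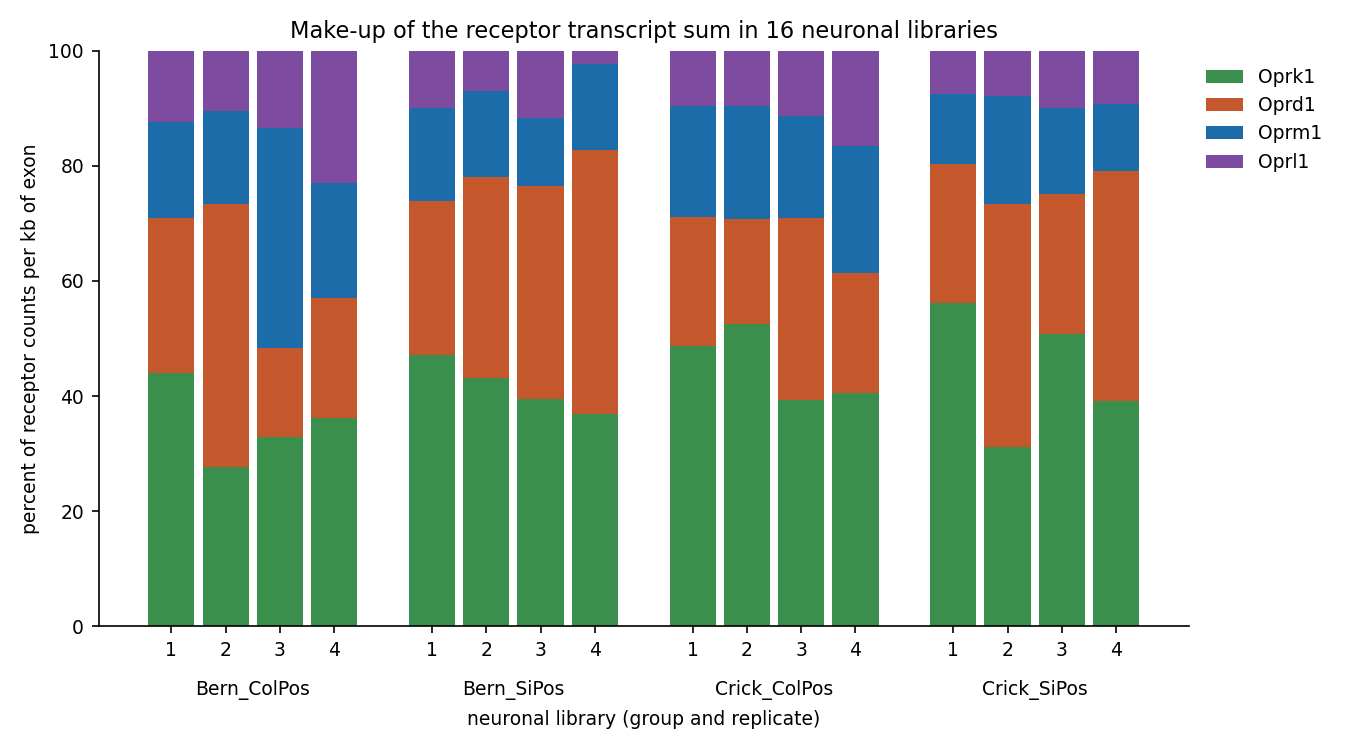
Percent of the summed receptor counts per kb of exon taken by each receptor gene, 1 stacked bar per neuronal library, grouped by facility and segment. Oprk1 takes the most on average (41.6%), and the Oprm1 segment is larger in the colon bars (mean 21.3%) than in the SI bars (14.4%).

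Receptor counts were also set against the pan-neuronal sum of the same library, most of which was Snhg11. Per pan-neuronal count, Oprd1 was 1.00 lower in colon than in SI on the log2 scale (exact permutation test within facilities, two-sided, p = 0.00122, adjusted over 8 tests 0.0098). Without Ret, Snhg11 and Prph in the sum the difference was -0.597 (adjusted exact permutation p = 0.0583). Oprk1 was at -0.617 (exact permutation p = 0.051, adjusted 0.102), Oprm1 at 0.0081 (p = 0.952, adjusted 0.952) and Oprl1 at 0.241 (p = 0.523, adjusted 0.598). With that shorter sum Oprm1 was at 0.412 and passed (adjusted exact permutation p = 0.0196). Bern against Crick, Oprm1 per pan-neuronal count was 0.510 lower in Bern (exact permutation p = 0.00653, adjusted 0.0261), a call lost without Bern colon 2, Bern SI 1 or 3 or Crick colon 1 or 2 (adjusted p up to 0.0637). Oprk1 at -0.796 (exact permutation p = 0.0196, adjusted 0.0522) and Oprl1 at -0.618 (p = 0.0722, adjusted 0.116) did not pass, but with the shorter sum they did, at -0.999 (adjusted 0.0098) and -0.82 (adjusted 0.0278). The pan-neuronal sum itself averaged 13830 CPM in Bern colon, 10729 in Bern SI, 8602 in Crick colon and 6137 in Crick SI, so the ratios move with that sum as well as with the receptor.

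Among the ligand precursors, Penk was the one detected at receptor-like levels. In neuronal nuclei Penk read 696, 258, 338 and 343 CPM in Bern colon, 70.6, 90.1, 61.8 and 109 in Bern SI, 85.1, 105, 84.6 and 203 in Crick colon, and 38.8, 34.3, 25.9 and 48.7 in Crick SI. Within each facility every colon library was above every SI library, a pattern whose share over all genes was not counted. The edgeR difference was 1.95 ± 0.25 (SE, adjusted p = 2.59e-05), and edgeR called none of the receptors in that comparison. Of the receptors for enkephalins, the exact permutation tests above called Oprm1 by share of the receptor sum (adjusted p = 0.0147). They called Oprd1 per pan-neuronal count (adjusted exact permutation p = 0.0098). Each of these calls was lost in some alternatives. A direct test of Penk against the receptors was not made. Bern was above Crick in colon by 1.77 ± 0.35 (edgeR adjusted p = 0.0114). The call was lost without Crick colon 1, 2 or 3 (adjusted p up to 0.0605) and in the fit of all 32 libraries (adjusted p = 0.0757). With the replicate number as a block it was 1.54 (edgeR adjusted p = 0.163). That fit compared a single replicate number of each facility and cannot judge the facility difference. In SI the Bern excess of 1.16 ± 0.35 was not called (edgeR adjusted p = 0.152).

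The other precursors were scarce. Pdyn, the source of dynorphins for Oprk1, averaged 21.1 ± 22.9 CPM in Bern colon neuronal nuclei with 1.91, 26.97, 51.0 and 4.67 in its libraries, and 1.71 to 4.35 CPM in the other 3 neuronal groups. Its excess in neuronal over non-neuronal nuclei was 2.89 ± 0.75 (edgeR adjusted p = 0.00161), and its colon excess in neuronal nuclei, 1.98 ± 0.73, was not called (adjusted p = 0.124). Pomc averaged 9.51 and 12.9 CPM in Bern colon and SI neuronal nuclei and 2.87 and 2.86 in the Crick groups. It was called higher in neuronal nuclei (2.98 ± 0.67, edgeR adjusted p = 0.000313), although Bern SI non-neuronal 1 held 48.1 CPM. Pnoc, the precursor for the Oprl1 ligand, had too few counts to be tested: Bern SI neuronal 1 held 20.2 CPM, and no other library exceeded 1.16.

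The machinery around the receptors was read from 58 pathway genes in 11 lists, of which 57 were tested. Between neuronal and non-neuronal nuclei 33 were called higher and 11 lower, where 21.9% and 21.6% of all genes were, with a median log2 difference of 1.09 against -0.01 over all genes. Most effectors that opioid receptors act on were called higher in neuronal nuclei. Of 4 potassium channel subunits of the GIRK class 3 were higher, led by Kcnj6 (6.03 ± 0.43) and Kcnj3 (4.33 ± 0.38), and all 3 presynaptic calcium channel genes were higher, among them Cacna1b (3.83 ± 0.25) and Cacna1a (2.20 ± 0.20). Of 5 inhibitory G alpha genes 4 were higher, with Gnaz at 2.61 ± 0.36 and Gnao1 at 1.55 ± 0.16.

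Regulators that end the signal were called higher or not at all. Of 9 RGS genes, whose proteins speed the shut-off of G alpha, 6 were higher and none lower, led by Rgs20 (4.60 ± 0.58) and Rgs17 (3.39 ± 0.37). Of 6 receptor kinase and arrestin genes 2 were higher, Grk3 (2.86 ± 0.17) and Arrb2 (1.09 ± 0.30). The adenylyl cyclases, which make cyclic AMP, split evenly: 4 were higher, such as Adcy2 (2.08 ± 0.50) and Adcy8 (2.04 ± 0.64), and 4 lower, such as Adcy7 (-2.14 ± 0.31) and Adcy5 (-1.03 ± 0.21). The Adcy8 call was lost without the 6 libraries that stood apart (1.73, edgeR adjusted p = 0.0605).

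Making and breaking of the peptides divided between the fractions. Of 5 processing genes 4 were higher in neuronal nuclei, with the prohormone convertases Pcsk1 at 3.68 ± 0.37 and Pcsk2 at 3.57 ± 0.34, whereas Cpe, carboxypeptidase E, was lower (-1.37 ± 0.22). Of 4 degradation genes, Ece2 was higher (4.15 ± 0.34), and Anpep (aminopeptidase N, -4.16 ± 0.48) and Mme (neprilysin, -4.12 ± 0.65), which both cleave enkephalins at the cell surface, were lower. Of 6 receptor partners 2 were higher, the sorting proteins Gprasp2 (1.87 ± 0.18) and Gprasp1 (1.33 ± 0.19), and 4 lower, among them the actin linker Flna (-3.26 ± 0.16) and the scavenging receptor Ackr3 (-2.96 ± 0.47). Of 4 genes named for opioids that are not receptors of this family, Ogfod1 alone was higher (0.67 ± 0.26, edgeR adjusted p = 0.0337), and it was lost in 9 of 32 omissions of 1 library.

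**Figure D5:**
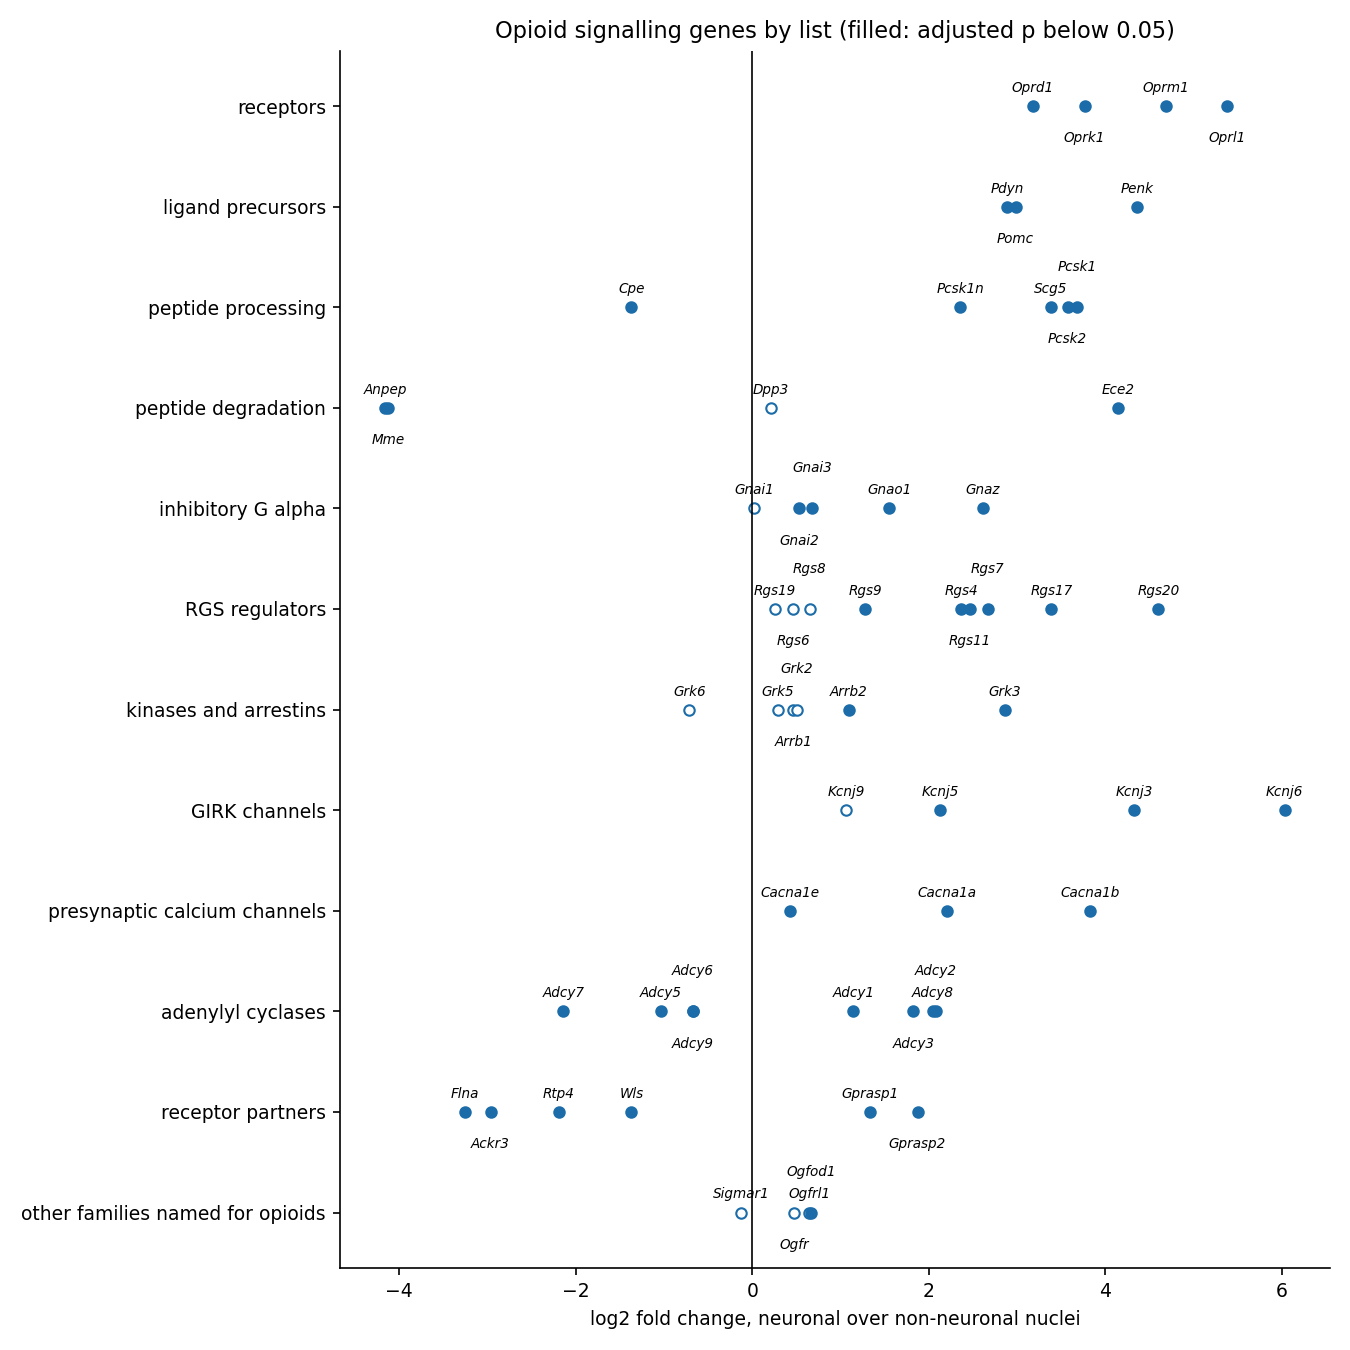
Log2 fold change of neuronal over non-neuronal nuclei for the receptors and the genes of 11 pathway lists, 1 point per gene; filled points have an edgeR adjusted p below 0.05. Receptors, calcium channels and most GIRK and processing genes lie to the right of 0 and 4 of 8 adenylyl cyclases to the left, with Kcnj6 the farthest right among the named pathway genes (6.03).

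Between colon and SI neuronal nuclei 3 of the 57 pathway genes were higher and 2 lower, where 1.97% and 3.54% of all genes were, with a median of -0.005. Of all calls in that comparison 35.7% were higher in colon, and 50.6% with scaling by total counts. Besides Penk, Kcnj6 (1.04 ± 0.29, edgeR adjusted p = 0.0334) and Kcnj5 (0.94 ± 0.27, adjusted p = 0.0376) were higher in colon. The Kcnj6 call was lost in 10 of 16 omissions of 1 library (adjusted p up to 0.0768) and the Kcnj5 call in 11 (up to 0.0841). Both were also lost with the replicate number as a block (edgeR adjusted p = 0.0852 and 0.0835) and in the fit of all 32 libraries (0.182 and 0.315). Kcnj6 kept its call only when Bern colon 1, 2 or 3, Bern SI 1, Crick colon 2 or Crick SI 2 was the library left out, and Kcnj5 only with Bern colon 1 or 2, Bern SI 1 or 4 or Crick SI 3. Anpep (-3.80 ± 0.69, edgeR adjusted p = 0.0013) and Flna (-0.82 ± 0.19, adjusted p = 0.0112) were lower in colon, the Flna call being lost with scaling by total counts. Both were also lower in neuronal than in non-neuronal nuclei, and the part of other cells in these values was not tested. Between Bern and Crick colon neuronal nuclei, Gnao1 (1.17 ± 0.27, adjusted p = 0.0255) and Rgs9 (0.86 ± 0.24, adjusted p = 0.0492) were higher in Bern with Penk, where 1.89% of all genes were. Both calls were lost in the fit of all 32 libraries (edgeR adjusted p = 0.069 and 0.222). With the replicate number as a block neither was called (edgeR adjusted p = 0.278 and 0.289). That fit compared a single replicate number of each facility and cannot judge the facility difference. Gnao1 was also lost without Bern colon 1 or Crick colon 1, 2 or 3, and Rgs9 without any 1 of Bern colon 1, 2 or 3 or Crick colon 1, 2 or 3.

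The genes that followed each receptor most closely were named from Pearson correlations of log2(CPM + 1) among 21459 genes. Over 32 libraries, which share the sort contrast and depth, the genes most like Oprm1 included Dscam (r = 0.977), Stxbp5l (0.965) and Iqsec3 (0.965), and Oprk1 was most like Ndst4 (0.974), Slc5a7, 2900027M19Rik, Scn3a and Gm37928 (0.963). Slc5a7 is the choline transporter of cholinergic neurons. Oprd1 was most like Ret (0.956), Chga, Jakmip3, Unc80 and Pcbp3 (0.952), with Oprk1 next at 0.951. Oprl1 was most like Gm47339 (0.947), Gm15609, Otud7a, Oprm1 (0.942) and Tm4sf4 (0.940).

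Over the 16 neuronal libraries alone, with 21444 genes ranked, correlations between receptors were lower and in part negative. Oprm1 and Oprd1 had r = -0.539, Oprm1 and Oprk1 0.001, Oprd1 and Oprk1 0.185, Oprd1 and Oprl1 -0.357, and Oprm1 and Oprl1 0.325. The gene most like Oprm1 was Gm10097 (0.911), followed by the GIRK subunit Kcnj5 (0.827), Gm38368, Gm43679 and Nrg1 (0.806). Those most like Oprd1 were Gm15270 (0.909), Ngef, Map1s, Gm37607 and Map3k1 (0.815). Oprk1 was most like Gm43879 (0.876), Gm37862, Gm42446, the nicotinic receptor subunit Chrna7 (0.845) and Gm42755 (0.820), and Oprl1 most like Gm16133 (0.912), March2, Cystm1, Sptlc1 and Erg28 (0.885). These correlations are descriptions over libraries that share depth and preparation.

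The surroundings of the genes were checked for genes that could share reads, since the libraries carried no strand information. Ipcef1 overlaps Oprm1 on the opposite strand with 96 shared exon bases, 1.2% of the receptor's exons. It averaged 26.5 CPM in neuronal nuclei and was higher there by 1.71 (edgeR adjusted p = 0.0035), so a small part of the counts cannot be told apart between them. Gm10945, also within Oprm1, had no counts. The other 3 receptors overlapped no annotated gene. Gm37711, an unclassified transcript 1363 bases beyond the 3′ end of Oprd1 on the same strand, averaged 15.1 CPM in neuronal nuclei and was higher there by 4.14 (adjusted p = 3.03e-09). The nearest coding gene after Oprl1, Myt1, lies 42347 bases away on the same strand and was higher in neuronal nuclei by 3.57, and the nearest coding gene before Oprm1 is Rgs17, 836106 bases away. Atp6v1h, the nearest coding gene before Oprk1, was at 0.33 and not called (edgeR adjusted p = 0.255).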

How the data were processed

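The deposited file is a table of expected counts for each Ensembl gene and library, made by the authors with RSEM per the column names. Per the submitters' processing notes RSEM 1.3.0, STAR 2.5.2, DESeq2 1.10.1 and GRCm38 were used, and their order and the Ensembl release were not given in the sources used here. Library preparation, per the labels' protocols, used NuGEN Ovation RNA-Seq V2 and single-end reads. Of the values 10.76% were not whole, and all were rounded. Identifiers were joined to GENCODE M21, which matched 51719 and left 193 unmatched.

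Groups came from the labels. Counts scaled by TMM and filtered by group with filterByExpr were fitted to group means in edgeR 4.0.16 (R 4.3.3), with the quasi-likelihood test and Benjamini-Hochberg adjusted p under 0.05 as the call. Sort comparisons and the segment by sort interaction used 32 libraries (21521 genes), neuronal comparisons 16 (17419) and non-neuronal comparisons 16 (19164). The SE is the log2 fold change divided by the square root of F. Shares and ratios (pseudocount 0.5) used exact permutation tests in SciPy 1.17.1 with Python 3.11.15. Counts simulated from the neuronal libraries were also fitted, for the colon against SI comparison only, and the outcome is not reported here. Alternatives were RLE and total count scaling, DESeq2 1.42.0, limma-voom 3.58.1, no filter on low counts, all 32 libraries in one fit, thinning to equal depth, the replicate number as a block, omission of each library and of 6 together, other lengths and other pan-neuronal sums. Longest transcript length and shares or ratios without a pseudocount were added after seeing the data.

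All receptors and ligand precursors were named, from each other pathway list at most 2 called genes with the largest change in each direction, the 5 genes most alike per receptor (some of those for Oprm1 are not reported here), and the neighbours of each receptor. The members and lists were chosen with earlier results of these data known. A count of 0 in a group was read against a floor of 3 counts, and floors and intervals cover counting error only where they rest on counts. Promoter sequences were from RefSeq (GRCm38.p6) and matched 3 of 4 receptors.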

Additional observations from a re-analysis of the deposited data

Results flagged for a closer look

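In 9 of 80 groups of 4 libraries examined, 1 library lay far from the other 3. The limit used would flag about 1 in 20 groups of normally spread values by chance, a rate that does not carry over to single counts beside zeros. For receptors these were Bern SI non-neuronal 1 (Oprd1 24.4 CPM against 0 to 0.295, Oprk1 50.7 against 0.256 to 7.95) and Crick colon non-neuronal 4 (Oprd1 32.9 against 7.91 to 10.8). Bern SI non-neuronal 1 also had the highest pan-neuronal sum of its group, 1373 CPM, and whether this accounts for its receptor counts was not tested.

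For precursors, Pdyn reached 23.7 CPM in Bern colon non-neuronal 2, 0.396 in Bern SI non-neuronal 2 and 1.80 in Crick SI non-neuronal 2, against at most 0.77 in the other libraries of each group. The value of 0.396 is a single count. Pomc was at 0.228 CPM, also 1 count, in Bern colon non-neuronal 4, and at 0 in the others. Pnoc was at 20.2 CPM in Bern SI neuronal 1 and at 1.16 in Crick SI neuronal 2, the other libraries of those groups holding at most 0.637. Without Bern colon non-neuronal 2, the edgeR excess of Pdyn in Bern colon neuronal nuclei passed the threshold (adjusted p = 0.00708 against 0.35).

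The difference between segments depended on the sort fraction by the edgeR interaction term for Oprm1 (-3.10), Oprl1 (-4.11), Oprd1 (-2.92) and Oprk1 (-2.30), each a lower neuronal excess in colon. Pomc differed in the opposite direction (4.22, adjusted p = 0.0439), a call lost in 24 of 32 omissions of 1 library and without the 6 libraries that stood apart (2.43, adjusted p = 0.417).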

How the results depend on the processing

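No receptor result past the threshold changed direction. Of those not past it, 13 changed sign under some alternative and none was past the threshold there. Among them, Bern minus Crick in non-neuronal nuclei went from 1.09 to -1.38 for Oprd1 and from 0.98 to -0.42 for Oprk1 without the 6 libraries that stood apart. In neuronal nuclei Bern minus Crick ran from -0.10 to 0.49 for Oprd1 in colon, and from -0.06 to 0.70 for Oprk1 and -0.17 to 0.45 for Oprl1 in SI. The 4 sort calls over all strata and the 4 interactions held throughout. In Crick colon the sort difference of Oprd1 fell under the threshold at equal depth (2.04) and ranged from 2.11 to 3.03 over single omissions, and that of Oprk1 in Bern colon from 1.64 to 2.21. The colon excess of Oprd1 in non-neuronal nuclei passed with total count scaling (2.58), DESeq2 (2.44), limma-voom (3.61), no filter (2.37), all 32 libraries in one fit (2.40), without the 6 libraries that stood apart (4.83) and with the replicate block (3.74), and ran from 2.04 to 4.71 over omissions. That of Oprk1 was lost at equal depth (2.02) and ran from 1.82 to 3.06. Oprl1 between facilities in non-neuronal nuclei passed in the fit of all 32 libraries (-2.41). Pathway genes higher in colon neuronal nuclei numbered 5 with DESeq2, 1 with all 32 libraries, 1 with the block and 1 to 3 over omissions, and lower ones 1 with total count scaling.

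The share difference of Oprl1 was lost with no division by length (2.75) and with longest transcripts (2.85). Over omissions it ran from 3.73 to 5.81, that of Oprm1 from 4.25 to 7.95 and that of Oprd1 from -12.3 to -7.21. Without Ret, Snhg11 and Prph in the pan-neuronal sum, colon minus SI ratios were 0.412 for Oprm1, now past the threshold, and -0.597 for Oprd1, no longer past it, and Bern minus Crick ratios passed for Oprk1 (-0.999) and Oprl1 (-0.82). Over omissions the Bern minus Crick ratio ran from -0.579 to -0.422 for Oprm1, -0.968 to -0.647 for Oprk1 and -0.795 to -0.376 for Oprl1, and the colon minus SI ratio of Oprk1 from -0.788 to -0.467. The cause of these changes was not tested.

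The median of all genes for colon against SI was 0.174 in neuronal and 0.322 in non-neuronal nuclei with total count scaling, against -0.006 and 0.022, and the sort median was -0.113 with RLE and -0.123 with DESeq2, against -0.012. The share of calls that were higher in Bern colon than Bern SI neuronal nuclei went from 31.4% to 43.1% with total count scaling and 41.9% with DESeq2. Counts of called genes moved by over 1.5 times as follows. Between segments in neuronal nuclei 960 became 1599 with DESeq2 and 1652 without a filter (Bern 727 to 1660 and 1411, Crick 159 to 363 and 304, Crick 253 with limma-voom and 93 without the 6 libraries). Between facilities in neuronal nuclei 538 in colon became 1683 with DESeq2, 1034 without a filter and 164 with all 32 libraries, and 119 in SI became 397, 328 and 43, and 78 without the 6. Non-neuronal nuclei had 1787 between segments (DESeq2 2948, all 32 libraries 2862, without the 6 libraries 764) and 1780 between facilities (DESeq2 2853, limma-voom 3122, no filter 6373, all 32 libraries 3176, without the 6 libraries 745, equal depth 1066). The segment by sort interaction had 1395 (DESeq2 2198), and the segment by facility interaction 1 (DESeq2 35, limma-voom 2, no filter 93, equal depth 0).

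The labels do not say that a replicate number marks a shared animal, and the numbers were not taken to pair libraries, since not every same-number correlation of deviations was over 0.1. Between the fractions of 1 segment these ran from 0.001 to 0.046 in Bern (median 0.024, against -0.013 for different numbers) and from 0.073 to 0.525 in Crick (median 0.201, against -0.085, range -0.411 to 0.285). Of 16 libraries, 13 in Bern and 12 in Crick correlated best with their own number in the other fraction, where each had 4 libraries to match. This is a hint from the data that these may be paired, and the main tests do not use such a pairing. The replicate block gave 4.74 for Oprm1, 3.67 for Oprd1, 4.07 for Oprk1 and 5.51 for Oprl1 between fractions over all strata. Between segments it called 710 genes in neuronal nuclei (Bern 384, Crick 100) and 1273 in non-neuronal nuclei. Between facilities it called 19 in colon and 11 in SI neuronal nuclei, and 11 in non-neuronal nuclei. The block was set within each facility, so these facility fits compared the level of a single replicate number at each facility. They cannot tell how pairing bears on differences between facilities. Non-neuronal Oprm1 and Oprl1 in SI rest on few counts, which limits their fold changes.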
